A study of Rattus norvegicus with 9 samples.

Results

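The genes described here are 6 transcripts of receptors, glutamate transporters and postsynaptic proteins: Chrna5, Grin2d, Slc17a7, Slc1a1, Nrgn and Lzts1. They were picked by name from the authors' tables of VPA responses. All 6 were found by symbol in those tables, matched by Ensembl identifier to the count table of 32662 genes, and were among the 12719 genes with enough reads to be tested. RN46A is an immortalised rat raphe cell line described by the submitters as serotonergic. All cells were grown at 33 °C in 5% serum and then held for 72 h at 39 °C in 1% serum, which differentiates them. They were cultured for another 72 h as controls without drug, with 0.5 mM lithium or with 0.5 mM sodium valproate (VPA), and 3 libraries of polyadenylated RNA were sequenced per group. Everything comes from 1 cell line, so the values describe that line only. The labels do not say whether the 3 libraries in each group stem from separate cultures. A p-value here measures the spread between libraries, which may be technical. Reads assigned to genes numbered 9580591 to 13030300 per library, so that 1 read was worth 0.0767 to 0.104 CPM, the count scaled to a common library size.

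Fast excitatory transmission in the brain uses glutamate. A vesicular transporter loads it into synaptic vesicles, receptor channels of the AMPA, NMDA and kainate families detect it on the receiving cell, and transporters of the plasma membrane take it up again. Beneath the receptors lies the postsynaptic density, a protein scaffold that holds calmodulin-dependent signalling enzymes. Nicotinic receptors, which are channels opened by acetylcholine, lie on both sides of synapses. Valproate is a mood stabiliser and inhibits histone deacetylases. Lithium, the other drug, inhibits glycogen synthase kinase 3 and inositol monophosphatase. The label covers both sides of the synapse, because the vesicular transporter Slc17a7 is a presynaptic protein.

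The members were chosen on their values in VPA against control. Those values are therefore given as a description, without a test. CPM values below are scaled by the trimmed mean of M-values (TMM), and log2 fold changes with their standard errors (SE) come from edgeR's quasi-likelihood fit over all 9 libraries.

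Chrna5 (ENSRNOG00000013610) encodes an accessory subunit of nicotinic acetylcholine receptors. It had 1, 1 and 2 reads in controls 1, 2 and 3, and 57, 37 and 70 reads in VPA libraries 1, 2 and 3. On the CPM scale its level was 0.0907, 0.109 and 0.178 in the controls and 4.45, 3.96 and 5.62 with VPA. The control reads are so few that Chrna5 was close to undetected there, and every VPA library stood far above every control. Its log2 fold change was 5.09 ± 0.53 (SE). The ratio of summed reads, 164 against 4, was 37.3 with an exact 95% counting interval of 14.3 to 139. Such intervals cover counting error only. The authors' deposited Cufflinks table places Chrna5 on chromosome 8 from 59561701 to 59607275. Neither the genome build nor the numbering of the first base is stated for these deposited positions. In RefSeq (GRCr8) the gene overlaps a pseudogene of Zc3h15 and lies next to Chrna3, another nicotinic subunit. The libraries carry no strand information, so reads from stretches that overlapping genes share cannot be told apart by strand.

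Grin2d (ENSRNOG00000021063) encodes the GluN2D subunit of NMDA receptors, which gives slowly closing channels with weak magnesium block. It was the 1 member that was lower with VPA. Its level was 9.07, 8.47 and 15.3 CPM in controls 1, 2 and 3 and 4.60, 4.71 and 4.58 CPM with VPA. The VPA libraries lay close together, at 4.63 ± 0.0717 CPM (SD, n = 3), whereas control 3 stood well above the other controls. The log2 fold change was -1.24 ± 0.26 (SE), and -0.91 without control 3. Within each title number, the VPA level was 0.507, 0.557 and 0.300 times the control level for numbers 1, 2 and 3. The authors' deposited Cufflinks table lists Grin2d on chromosome 1 from 101820460 to 101857281, 647 kb beyond the end of Slc17a7 in the same table. In RefSeq the gene overlaps Grwd1 and a long noncoding RNA, and reads from shared stretches cannot be separated without strand.

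Slc17a7 (ENSRNOG00000020650) encodes the vesicular glutamate transporter of most cortical excitatory neurons. It was at 1.18, 0.760 and 2.67 CPM in controls 1, 2 and 3 and at 8.89, 11.0 and 14.3 CPM with VPA. The groups did not overlap, and replicate 3 was the highest library within each group. Its log2 fold change was 2.86 ± 0.42 (SE), and 3.53 without control 3. The VPA level was 7.54, 14.5 and 5.36 times that of the control with the same number. The authors' deposited Cufflinks table gives chromosome 1 from 101161246 to 101173174.

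Slc1a1 (ENSRNOG00000014816) encodes the neuronal glutamate transporter of the plasma membrane, which also carries cysteine into neurons. Its level was 1.81, 1.41 and 1.16 CPM in the controls and 7.02, 5.57 and 8.51 CPM with VPA. Control 3, the highest control for Slc17a7 and Grin2d, was the lowest for Slc1a1. The log2 fold change was 2.26 ± 0.30 (SE), and by title number the VPA level was 3.87, 3.95 and 7.37 times the control level. It lies on chromosome 1 from 246954979 to 247037582 in the authors' deposited Cufflinks table. In RefSeq, Slc1a1 overlaps Spata6l.

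Nrgn (ENSRNOG00000010688) encodes neurogranin, a small protein of dendritic spines that binds calmodulin when calcium is low. It had 2, 3 and 3 reads in the controls and 50, 38 and 118 reads with VPA. The VPA levels were 3.90, 4.07 and 9.48 CPM against 0.181 to 0.326 CPM in the controls. VPA 3 was far above the other VPA libraries, which gave a group mean of 5.82 ± 3.17 CPM (SD, n = 3). The log2 fold change was 4.46 ± 0.60 (SE), and 3.91 without VPA 3. Summed reads of 206 against 8 gave a ratio of 23.4 (exact 95% counting interval 11.7 to 55.0). The authors' deposited Cufflinks table gives chromosome 8 from 40015048 to 40023193.

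Lzts1 (ENSRNOG00000011826) encodes a leucine zipper protein of the postsynaptic density. It had 1, 0 and 3 reads in controls 1, 2 and 3 and 44, 29 and 88 reads with VPA. Its VPA levels of 3.43, 3.11 and 7.07 CPM again had VPA 3 on top. The log2 fold change was 5.06 ± 0.62 (SE), and the ratio of 161 to 4 summed reads was 36.6 (exact 95% counting interval 14.0 to 136). Without control 3, which held 3 of the 4 control reads, the fitted change of Lzts1 was 6.25. With so few control reads, the prior count that edgeR adds partly sets the fitted value, which is therefore not a limit.

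**Figure D1:**
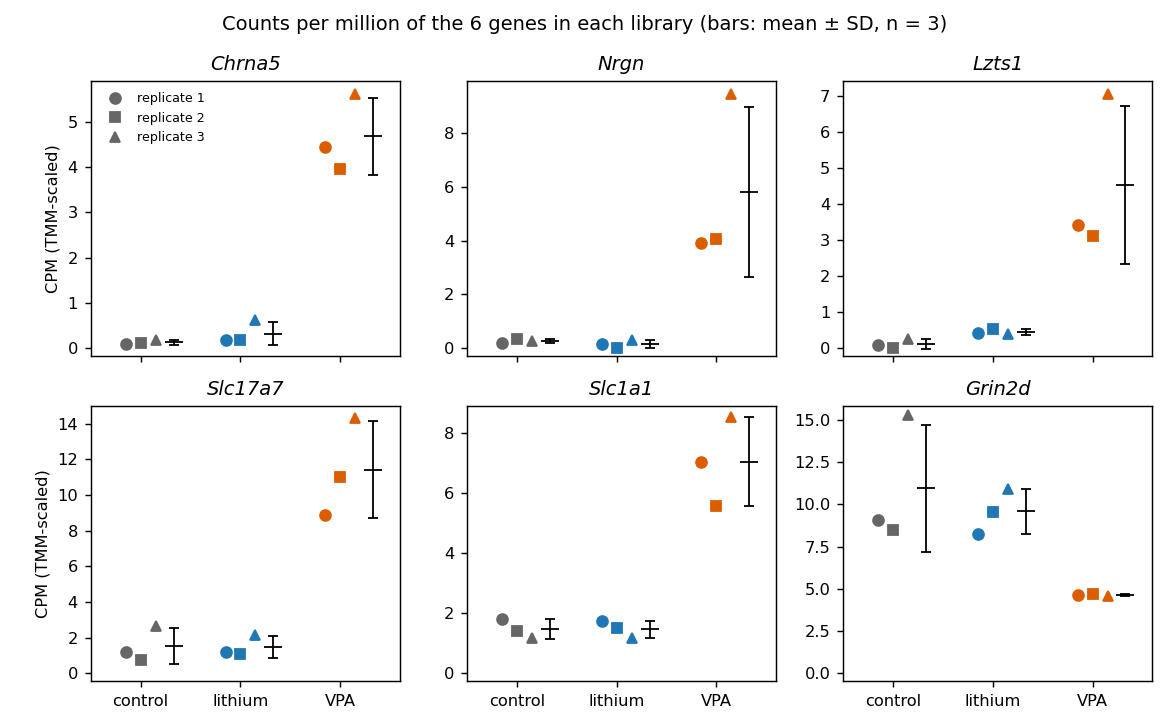
Level of each of the 6 genes in every library, in TMM-scaled CPM on a linear axis that differs between panels. Symbols mark the replicate number, colours the group, and black bars the mean ± SD of 3 libraries. VPA libraries lie above all others for 5 genes and below all others for Grin2d, from 4.58 to 4.71 CPM.

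With VPA, library 3 was the highest of its group for each of the 5 genes that were higher, and the coefficient of variation within the VPA group ran from 18.2% for Chrna5 to 54.5% for Nrgn. For Grin2d it was 1.55%. Across all genes, VPA libraries lay wholly above the controls for 14.1% of those tested and wholly below for 11.4%, and 5.71% rose while 2.99% fell at an adjusted p under 0.05 (edgeR's quasi-likelihood F test, Benjamini-Hochberg adjusted). Nothing is read from the members against these shares, since this contrast chose them. Chrna5, Nrgn and Lzts1 reached the minimum of 10 reads in 0 control and 0 lithium libraries, so they entered the fit through the VPA group alone. In the plot of alternative settings, the lowest and the highest value of each member came from leaving out 1 library. The largest move was that of Lzts1 without control 3.

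**Figure D2:**
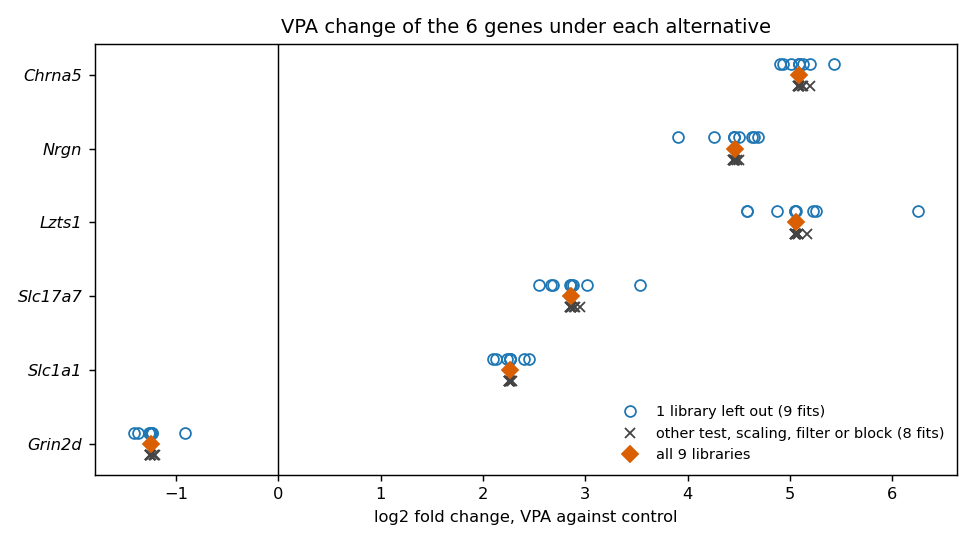
Log2 fold change of VPA against control for each gene with all 9 libraries (diamonds), with 1 library left out (circles, 9 fits) and with another test, scaling, filter, block or set of libraries (crosses, 8 fits). The widest spread is that of Lzts1, from 4.58 to 6.25. Grin2d stays below 0 throughout, from -1.41 to -0.91.

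Promoter sequences are shown for the 4 members that RefSeq's promoter table (GRCr8) holds, to set a gene that was lower with VPA beside 3 that were higher. Each window runs 5′ to 3′ on the gene's strand, from 250 bases before to 50 bases after the table's start site. Capitals mark matches, on either strand, to the GC box bound by Sp1-type factors (GGGCGG) and to the core of the right part of the REST element RE1 (GGACAG).
Chrna5, chr8:64265629-64265928, plus strand: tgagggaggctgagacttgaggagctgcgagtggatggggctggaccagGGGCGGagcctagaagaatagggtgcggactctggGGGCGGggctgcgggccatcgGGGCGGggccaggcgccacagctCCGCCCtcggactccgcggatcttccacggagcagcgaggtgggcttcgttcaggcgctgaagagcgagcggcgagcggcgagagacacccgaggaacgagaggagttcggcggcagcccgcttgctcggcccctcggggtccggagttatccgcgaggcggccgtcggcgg
Nrgn, chr8:45452368-45452667, minus strand: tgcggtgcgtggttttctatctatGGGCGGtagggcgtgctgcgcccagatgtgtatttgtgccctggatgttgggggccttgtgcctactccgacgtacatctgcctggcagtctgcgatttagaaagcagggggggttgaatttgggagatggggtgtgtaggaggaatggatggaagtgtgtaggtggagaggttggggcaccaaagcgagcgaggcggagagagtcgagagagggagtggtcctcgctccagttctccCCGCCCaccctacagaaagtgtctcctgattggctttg
Slc17a7, chr1:104785955-104786254, plus strand: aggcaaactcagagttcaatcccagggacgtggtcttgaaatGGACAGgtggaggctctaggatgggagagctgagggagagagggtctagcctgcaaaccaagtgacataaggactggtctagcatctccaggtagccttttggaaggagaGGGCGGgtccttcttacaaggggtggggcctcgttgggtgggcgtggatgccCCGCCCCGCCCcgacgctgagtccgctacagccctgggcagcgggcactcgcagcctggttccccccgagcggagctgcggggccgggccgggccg
Grin2d, chr1:105481187-105481486, minus strand: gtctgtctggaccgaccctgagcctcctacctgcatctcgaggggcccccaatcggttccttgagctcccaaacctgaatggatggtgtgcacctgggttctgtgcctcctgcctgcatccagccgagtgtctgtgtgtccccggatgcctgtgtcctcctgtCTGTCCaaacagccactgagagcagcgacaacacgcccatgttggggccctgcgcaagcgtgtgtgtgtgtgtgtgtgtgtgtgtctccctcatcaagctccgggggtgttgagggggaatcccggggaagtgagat

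The GC box matched at 4 places in the Chrna5 window, 3 in that of Slc17a7, where 2 matches share a base, 2 in that of Nrgn and 0 in that of Grin2d. Of all 33469 windows in the table, 33.1% held this motif. GGACAG matched once each in Slc17a7 and Grin2d and is present in 21.7% of windows. The longer left part of RE1 (TTCAGCACC, 0.356% of windows), the cAMP response element TGACGTCA (1.83%), the E-box CACGTG (6.42%) and the TATA box TATAAA (14.2%) had 0 matches in these 4 windows. G and C made up 71.3% of the Chrna5 window, 64.7% of that of Slc17a7, 60.7% of that of Grin2d and 57.7% of that of Nrgn, against a median of 51.7% over all windows. The start site used for Grin2d lies 2164 bases inside the outermost start of that gene in RefSeq, so its window is not the region before the gene's first annotated base. A match describes letters in a window and does not show that a factor binds there.

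Lithium against control asks whether the other mood stabiliser moved the same genes. It shares the control libraries with the contrast that chose them and so is not independent of that choice. For a gene picked as higher with VPA, low control values favour the choice and also raise lithium over control, and for Grin2d high control values act the other way. Lithium had 0 of the 6 members called, as it had 0 of all 12719 genes (0.00% called in edgeR's quasi-likelihood F test, Benjamini-Hochberg adjusted). DESeq2 called 0 genes as well, and 116 genes (0.912%) had an unadjusted p under 0.05 in edgeR. Slc1a1 was at 1.72, 1.49 and 1.16 CPM in lithium libraries 1, 2 and 3, within the range of the controls, with a log2 difference of -0.01 ± 0.33 (SE). An approximate 95% interval from that error runs from -0.81 to 0.79. Slc17a7 was at 1.21, 1.05 and 2.16 CPM, also within the control range, and differed by -0.07 ± 0.46 (interval -1.19 to 1.05). Grin2d was at 8.27, 9.56 and 10.9 CPM and differed by -0.19 ± 0.25 (interval -0.80 to 0.42). For each of these genes the lithium and control libraries overlapped, and the intervals still allow changes of moderate size.

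The low-abundance members were less certain. Lzts1 had 5, 6 and 5 reads with lithium, or 0.431, 0.526 and 0.385 CPM, against a highest control of 0.267 CPM. The lithium libraries of Lzts1 thus did not overlap with the controls, a pattern that 1.71% of all tested genes showed in the upward direction and 1.57% downward. Its log2 difference was 1.73 ± 0.80 (SE) with an adjusted p of 1 in edgeR's quasi-likelihood test, and ran from 1.24 without control 2 to 2.92 without control 3. The low control reads of Lzts1 belong to the values that chose it. The ratio of 16 to 4 summed reads was 3.50 (exact 95% counting interval 1.13 to 14.4). The authors' deposited lithium table, which lists 137 genes up to an unadjusted p of 0.0499, contains Lzts1 and 0 other members. There it has a log2 change of 0.45 ± 0.22 (the table's SE), an unadjusted DESeq2 p of 0.0453 and an adjusted p of 0.999909.

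Chrna5 had 2, 2 and 8 reads with lithium, and lithium 3, at 0.616 CPM, was the 1 lithium library above all controls. Its log2 difference of 1.31 ± 0.71 had an adjusted p of 1 in edgeR's test, and fell to 0.42 without lithium 3. Nrgn had 2, 0 and 4 reads with lithium and differed by -0.59 ± 0.90, with an adjusted p of 1 in edgeR's test. Without lithium 3 the difference of Nrgn was -1.44, and without lithium 2 it was -0.06. Differences in Chrna5 and Nrgn between lithium and control were not detectable at this depth. Leaving out 1 library turned the small lithium differences of 3 members: Slc17a7 reached 0.59 and Grin2d 0.13 without control 3, and Slc1a1 reached 0.18 without control 1.

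VPA against lithium shares the VPA libraries with the contrast that chose the members, so its values are a description too. The log2 differences were 5.05 ± 0.62 for Nrgn, 3.78 ± 0.44 for Chrna5, 3.32 ± 0.50 for Lzts1, 2.93 ± 0.42 for Slc17a7, 2.27 ± 0.30 for Slc1a1 and -1.05 ± 0.26 for Grin2d. Without lithium 3, Chrna5 was at 4.66 and Nrgn at 5.90, and without VPA 3 Nrgn was at 4.50. VPA and lithium libraries did not overlap for any of the 6 genes. Over all tested genes, VPA lay wholly above lithium for 15.8% and wholly below for 13.5%. In the plot of the 3 comparisons, Slc17a7 and Slc1a1 have nearly the same value against either reference group, while Lzts1 and Chrna5 sit lower against lithium than against control. Whether these differ was not tested, because the comparisons share their VPA libraries.

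**Figure D3:**
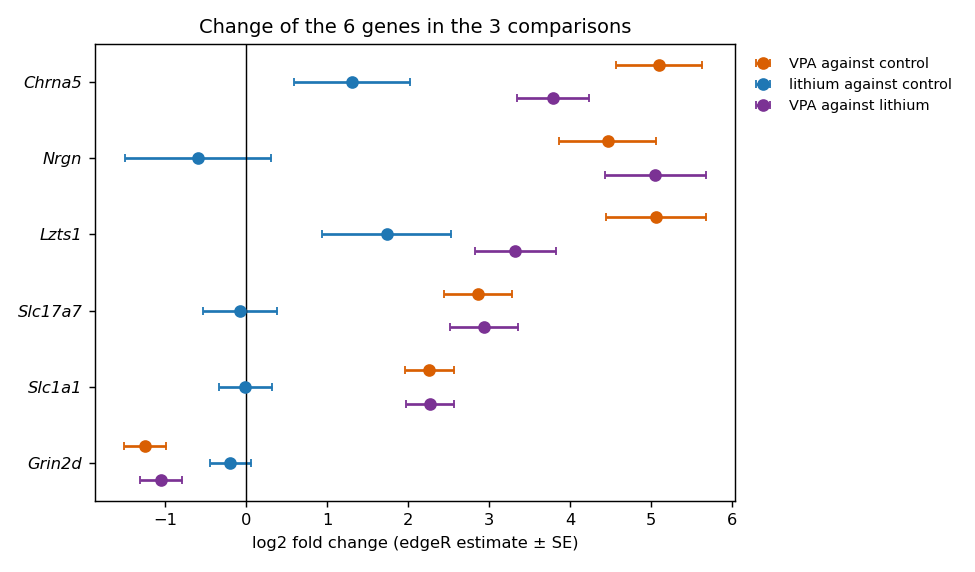
Log2 fold change ± SE (edgeR) of the 6 genes for VPA against control, lithium against control and VPA against lithium. Lithium values lie within 1 SE of 0 for Nrgn, Slc17a7, Slc1a1 and Grin2d, and at 1.31 and 1.73 for Chrna5 and Lzts1. VPA values lie away from 0 against both references.

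Levels of different genes can be compared only per transcript length. For that the authors' deposited Cufflinks table gives 1 FPKM value per group, without an error, for 5 of the members and for VPA and control only. In control, Grin2d had the highest of these values with 1.87 FPKM, followed by Slc17a7 (0.494), Slc1a1 (0.339), Nrgn (0.258) and Chrna5 (0.0515). With VPA, Nrgn came first with 4.23 FPKM, then Slc17a7 (3.62), Slc1a1 (1.72), Chrna5 (1.44) and Grin2d (0.618). Grin2d therefore moved from the highest to the lowest place among the 5, as the plot of FPKM values shows. The members were chosen on their VPA values, with Grin2d as the 1 that was lower, so this change of places is a description. With 1 value per group, the error of neighbouring places in this order is unknown.

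**Figure D4:**
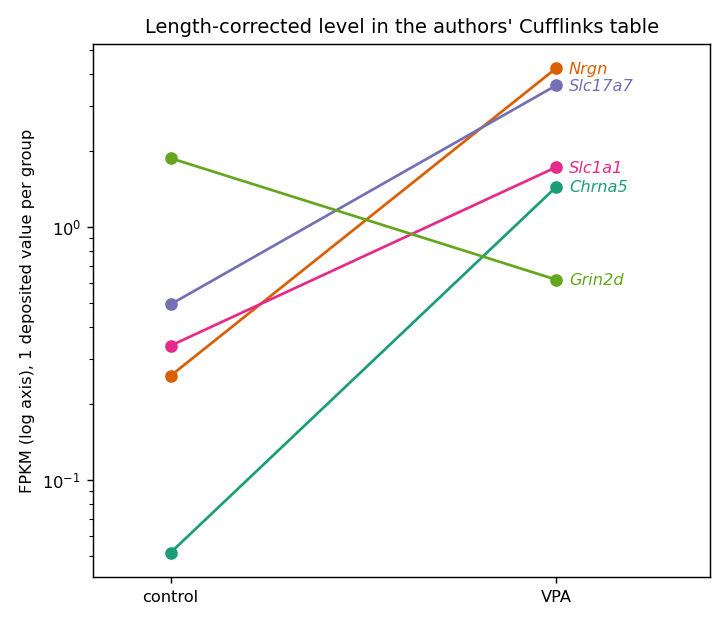
FPKM (log axis) of 5 genes in the control and VPA groups, from the authors' deposited Cufflinks table, 1 value per group and no error. Lines join the values of a gene. Grin2d goes from 1.87 to 0.618 FPKM and crosses the lines of the 4 other genes.

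The authors' tables of VPA against control gave each member they list the sign found here, and differed in size. Lzts1 is not listed in the Cufflinks table. The authors' deposited DESeq2 table gives log2 changes, to 1 decimal, of 2.9 for Chrna5, 2.7 for Lzts1, 2.6 for Nrgn, 2.3 for Slc17a7, 1.7 for Slc1a1 and -1.1 for Grin2d. The authors' deposited Salmon and sleuth table lists 1 transcript per member, with effects on a natural log scale that were converted to log2. Those effects were 5.22 ± 0.79 for Lzts1 and 4.62 ± 1.48 for Slc17a7 (the table's SE). They were smaller for Slc1a1 (1.69 ± 0.35), Chrna5 (1.55 ± 0.36) and Nrgn (1.28 ± 0.31), and -1.24 ± 0.31 for Grin2d. Chrna5 and Nrgn, among the largest changes in counts per gene, had the smallest estimated increases per transcript. Slc1a1 and Chrna5 lay closer together there than their errors, so their order is not resolved. Ratios of the authors' FPKM values were 27.9 for Chrna5, 16.4 for Nrgn, 7.33 for Slc17a7, 5.07 for Slc1a1 and 0.331 for Grin2d. The cause of these differences in size was not tested.

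Other genes of synaptic transmission were taken from 8 lists that held 171 genes besides the members. Only 17 of them had a symbol and enough reads. Symbols come from the authors' DESeq2, sleuth and lithium tables, which list genes by p-value in the same libraries. Slc38a2, listed under glutamate transport, is not among the 17. The authors' Cufflinks table gives it 40.4 FPKM with VPA and 67.2 FPKM in control. The counts therefore do not describe whole lists and are no independent evidence of direction. Chrm4, Gabrq, Shank1, Agap2 and Camk4 had 0 to 12 reads over all controls together and 0 to 11 over all lithium libraries. No control or lithium library held 10 reads of any of them. At least these genes thus entered the fit through the VPA group alone and could be called only as higher with VPA. Lynx1, Shank3 and Camk2n2 had 26, 27 and 13 reads over all controls and 18, 19 and 22 over all lithium libraries. They too needed VPA libraries to pass the filter, so their rise is no evidence of direction. In VPA against control 12 of the 17 rose, 2 fell and 3 did not pass (edgeR, adjusted over all genes). That is 82.4% called, near the 77.1% of all 1247 tested genes with a symbol (50.1% higher and 26.9% lower), while 8.70% of all genes tested were called. Their median log2 change was 1.84, against 0.90 for genes with a symbol and -0.01 for all genes. In VPA against lithium 10 rose, 1 fell and 6 did not pass, or 64.7% called against 64.4% of genes with a symbol (45.3% higher and 19.1% lower) and 7.93% of all genes (5.61% higher and 2.32% lower). With lithium 0 of the 17 were called.

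Among glutamate receptor genes, Grin2d was the 1 of 18 ionotropic subunits with a symbol, and 0 of 8 metabotropic receptors had one. Olfm2 and Olfm3, olfactomedins found in AMPA receptor complexes, moved apart. Olfm2 rose from 4.19 ± 0.562 to 15.1 ± 2.75 CPM (SD, n = 3), and Olfm3 fell from 6.53 ± 5.19 to 0.434 ± 0.125 CPM. In glutamate metabolism Glud1, the mitochondrial enzyme glutamate dehydrogenase, was at 307 ± 9.57 CPM in control and 208 ± 4.97 CPM with VPA. Its fall of 0.56 on the log2 scale had an adjusted p of 0.028 (edgeR's quasi-likelihood test). Glud1 lost that call without any 1 of VPA 1, 2 or 3, control 1 or 2 or lithium 3, with adjusted p of 0.0514 to 0.102 in edgeR's test. It also lost it with no filter or with the 2 groups alone (0.0756 and 0.0905).

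Of 24 listed acetylcholine receptor genes and modulators, 2 besides Chrna5 had a symbol and enough reads, and both rose. The share that rose was 50.1% over all tested genes with a symbol and 5.71% over all tested genes. Both genes, Chrm4 and Lynx1, needed VPA libraries to pass the filter, so nothing is read from this count. Chrm4, a muscarinic receptor, rose from 0.126 ± 0.046 to 2.21 ± 0.865 CPM (SD, n = 3), on 4 reads in all controls together. Its ratio of summed reads was 17.7 (exact 95% counting interval 6.66 to 66.7). Lynx1, a membrane-anchored modulator of nicotinic receptors, rose from 0.782 ± 0.703 to 4.45 ± 0.582 CPM. Lynx1 lost its call without control 1 or any 1 VPA library (adjusted p of 0.0554 to 0.0839 in edgeR's quasi-likelihood test). For inhibitory transmission, the GABA receptor subunit Gabrq rose by 2.68 ± 0.48 (log2 ± SE), on 7 reads in all controls together. Glrb, the beta subunit of glycine receptors, differed by 1.34 ± 0.38 and missed the threshold (adjusted p of 0.0526 in edgeR's test). Glrb passed in DESeq2 (adjusted p of 0.00787), in edgeR without the filter (0.0321), with the 2 groups alone (0.0388), without lithium 2 or lithium 3 (0.0489 and 0.0382) and with the replicate number as a block (0.00332).

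Of 37 listed postsynaptic scaffold genes, 5 besides Lzts1 could be tested, and 3 of them rose. Beside this count, 50.1% of all tested genes with a symbol and 5.71% of all tested genes rose. Shank1 and Shank3 needed VPA libraries to pass the filter, so nothing is read from the count. Shank3, a master scaffold of the postsynaptic density, rose from 0.853 ± 0.205 to 4.70 ± 0.761 CPM (SD, n = 3). Its relative Shank1 had 0 reads in all control and lithium libraries and 38 with VPA. Against a floor of 3 reads over the group, Shank1 was at least 11.5-fold higher with VPA than in control. Sipa1l2 rose by 1.67 ± 0.27 (log2 ± SE). Iqsec2, at 45.7 ± 15.5 CPM in control and 48.7 ± 2.87 CPM with VPA (SD, n = 3), differed by 0.09 ± 0.24 (log2 ± SE). Iqsec2 did not pass (adjusted p of 0.880 in edgeR's quasi-likelihood test). Homer2, which links metabotropic receptors to calcium stores, differed by 1.25 ± 0.39 and did not pass (adjusted p of 0.0701 in edgeR's quasi-likelihood test). Homer2 passed in DESeq2 (adjusted p of 0.0245), in edgeR without the filter (0.0272), with the 2 groups alone (0.0486), without control 3 or lithium 3 (0.0312 and 0.0376) and with the replicate number as a block (0.00623).

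Of 21 listed genes of calmodulin and kinase signalling, 5 besides Nrgn could be tested, and all 5 rose. Over all tested genes with a symbol 50.1% rose, and over all tested genes 5.71%. Agap2, Camk4 and Camk2n2 needed VPA libraries to pass the filter, so nothing is read from the count of those that rose. Camk2b, a subunit of the calcium- and calmodulin-dependent kinase II, went from 8.46 ± 1.98 to 19.9 ± 1.32 CPM (SD, n = 3). Camk2n1, an inhibitor of the same kinase, went from 3.44 ± 0.306 to 11.5 ± 1.10 CPM. The kinase and its inhibitor thus both rose. Camk4, a nuclear relative, rose by 2.01 ± 0.42 (log2 ± SE), but was not called without control 1 or VPA 3 (adjusted p of 0.0513 and 0.0522 in edgeR's quasi-likelihood test). Agap2, an enhancer of phosphoinositide 3-kinase signalling, had 180 reads with VPA against 1 in all controls, a ratio of 164 (exact 95% counting interval 29.0 to 6504).

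**Figure D5:**
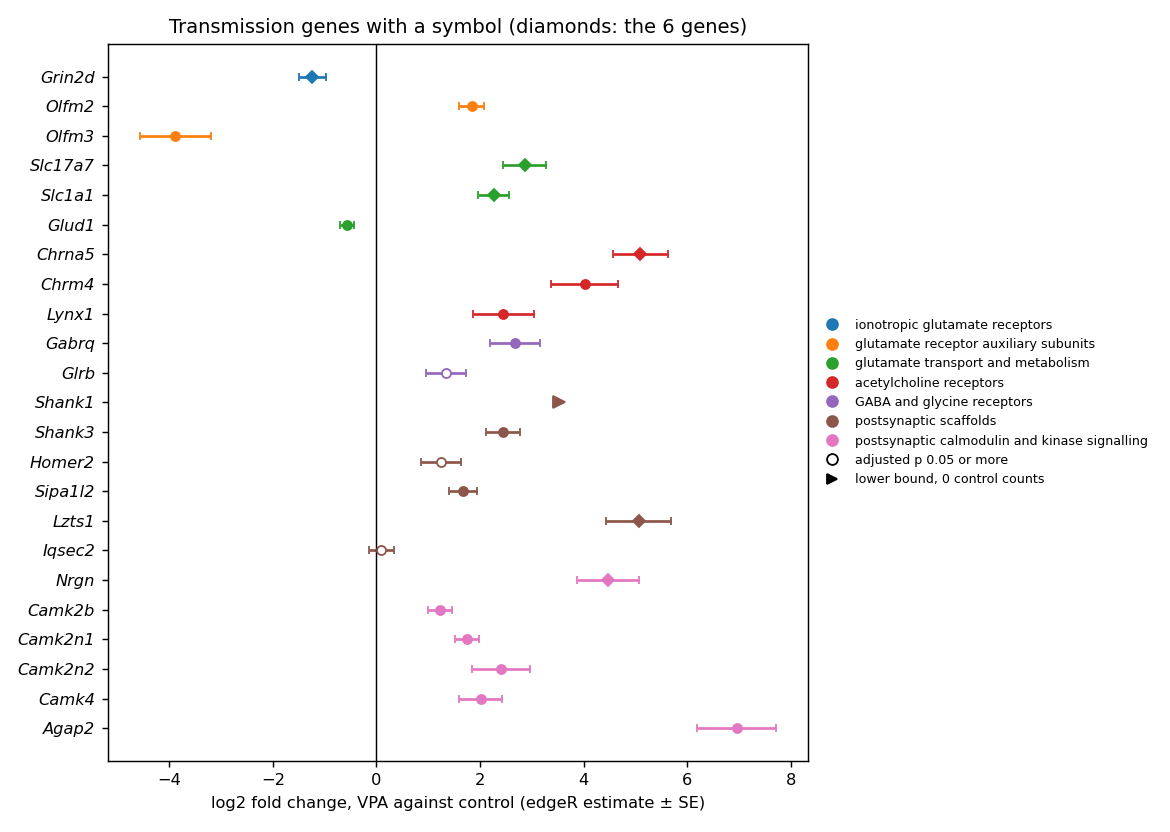
Log2 fold change ± SE (edgeR, VPA against control) of the 23 transmission genes with a symbol and enough reads, coloured by list. Diamonds are the 6 members, open circles genes that did not pass, and the triangle a lower bound of 3.53 for Shank1, which had 0 control reads. Members lie at 5.09 (Chrna5) to -1.24 (Grin2d), and the fitted value of Agap2 rests on 1 control read.

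The genes whose pattern over the 9 libraries was most like each member's are given as a description, by Pearson correlation of log2(CPM + 0.5) among 1177 candidate genes. Candidates had a symbol and a mean of 1 CPM or more, so most tested genes were not searched. Of tested genes with a symbol, 77.1% were called in VPA against control. The points share libraries and a large difference between VPA and the rest, so high values are common. Nearest to Chrna5 were 1500009L16Rik (r = 0.993), Acsl1 and Mpp7 (both 0.990). Nearest to Nrgn were the actin-bundling protein Lcp1 (0.989), Emb (0.988) and Cmtm8 (0.987). Lzts1 was followed by Cachd1 (0.985), Rbm11 and Fez1 (both 0.984). Slc17a7 had Kcnab3 (0.994), Aplp1 (0.993) and the neuropeptide precursor Vgf (0.992). Slc1a1 had Gucy1b3 (0.989), Lingo1 (0.988) and Nsg2 (0.987). Grin2d followed genes that were lower with VPA, namely Patz1, the kinase Akt2 (both 0.979) and Amotl2 (0.976).

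Markers of cell state with a symbol are given as a description. Their symbols come from tables of genes listed by p-value in these libraries. Of all tested genes with a symbol, 77.1% were called in VPA against control. Movement of these markers is therefore no independent evidence about cell state. In bulk RNA fewer cells of a kind and less RNA per cell cannot be told apart. The 5 pan-neuronal markers with a symbol, of 9 in the list, summed to 13.1 to 24.1 CPM in the controls, 16.5 to 20.5 CPM with lithium and 73.9 to 82.6 CPM with VPA. The 3 of 5 markers of Schwann cells and neural crest (Sox10, Erbb3 and Ngfr) summed to 7.82 to 12.7, 10.3 to 12.5 and 54.0 to 63.6 CPM in the same order. All 5 fibroblast markers summed to 219 to 504 CPM in the controls, 133 to 207 CPM with lithium and 77.4 to 87.1 CPM with VPA, where Lum was at 0. Col1a1 and Col3a1 made up most of that sum. Pdgfra went the other way, with 5.29 ± 1.30 CPM in control, 3.12 ± 0.654 CPM with lithium and 8.21 ± 1.35 CPM with VPA (SD, n = 3). It did not pass against control (adjusted p of 0.178 in edgeR's test) and rose against lithium by 1.39 ± 0.27 (log2 ± SE, adjusted p of 0.00941 in edgeR's test). The 1 of 6 astrocyte markers, S100b, was at 3.26 to 4.54, 3.08 to 4.91 and 1.50 to 1.87 CPM. Of 10 markers of serotonergic neurons only Maob had a symbol, at 0.868 to 1.45, 0.693 to 1.21 and 5.46 to 8.43 CPM, so the labelled cell type could not be checked further. Of 6 oligodendrocyte and 5 microglia markers 0 had a symbol. The part of these markers in the members' values was not tested.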

How the data were processed

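Polyadenylated RNA of 9 RN46A libraries was compared, grouped and numbered by the submitters' titles. The submitters' processing notes list STAR 2.5.1, Salmon 0.6.1, sleuth, DESeq2, Cufflinks 2.2.1, CASAVA 1.8 and kallisto 0.42.4 but not what each did. No genome build or annotation is named in the labels or file headers. The authors deposited raw counts per Ensembl gene, with 0 lines that name no gene. Per the file headers, their DESeq2 tables hold log2 fold changes, p-values and mean normalized counts (a signal, not used), their Cufflinks table holds 1 FPKM value per group, and their Salmon and sleuth table holds effects per transcript. Those deposited effects were read as natural log values, since their median ratio to the Cufflinks log2 values was 0.697 over 590 pairs. A table titled for kallisto repeats DESeq2 columns and was not used.

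Counts were tested with edgeR 4.0.16 (R 4.3.3) after TMM scaling and filterByExpr at a minimum count of 10. One robust quasi-likelihood model held the 3 group means of all 9 libraries, with 6 residual degrees of freedom. Tests were two-sided, and p-values were adjusted by Benjamini-Hochberg over 12719 genes and called under 0.05. The SE is the log2 fold change over the square root of F. The script was tested on simulated data. The members, lists and rules were chosen with earlier results of these data known. Besides the members, up to 4 genes per list were named by smallest p in VPA against control, and the 3 genes most correlated with each member (mean of 1 CPM or more). Symbols came from the authors' DESeq2, sleuth and lithium tables (1315 genes), and not from their Cufflinks table. RefSeq held promoters of 4 of the 6 members. Same-numbered control and VPA libraries deviated together from their group means (correlations 0.605, 0.532 and 0.526 over 10288 genes at 5 CPM or more), so their title numbers were taken as pairs in a blocked fit; the labels state no pairing, and lithium 1 and 2 did not pair with controls (-0.42 and -0.0808). Alternatives were DESeq2 1.42.0, median-ratio and upper-quartile scaling, no filter, 1 CPM in 3 libraries, the replicate block, the 2 groups alone, each library left out and, added after seeing the data, the block on the 2 groups alone. No pair of replicates looked like 1 library deposited again (chi-square of their counts per degree of freedom 27.0 to 68.3).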

Additional observations from a re-analysis of the deposited data

How the results depend on the processing

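VPA against control kept its sign for each of the 6 members in all 17 alternatives. The members were chosen on this contrast and their groups did not overlap in it, so the kept sign is a description and no support. Over all genes, the main test called 726 higher and 380 lower in VPA against control and 714 and 295 in VPA against lithium. DESeq2 called 913 higher and 616 lower against control, and 918 and 452 against lithium. With the replicate number as a block, 1075 were called higher and 666 lower against control, and 1042 and 567 against lithium. The block on the 2 groups alone gave 1412 higher and 996 lower in VPA against control. The 2 groups without a block gave 609 higher and 253 lower in VPA against control. Leaving out 1 library gave 457 to 691 higher and 154 to 335 lower in VPA against control, and 396 to 863 higher and 127 to 334 lower in VPA against lithium. The lowest of these came without control 1, VPA 1, lithium 2 and lithium 1, in that order. Of the 17 listed genes that are no members, 9 to 15 were called higher and 1 to 2 lower in VPA against control with 1 library left out, and 10 to 14 and 0 to 1 in VPA against lithium. Their calls lower changed from 2 to 1 without the filter and in the fit of 2 groups, and from 1 to 2 in VPA against lithium under DESeq2 and under the replicate block. Lithium against control had 0 genes called in every fit with 1 library left out. The cause of these changes was not tested. Depth limits Chrna5, Nrgn and Lzts1 in control and lithium, where each had 0 to 8 reads per library.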
